A study of Drosophila melanogaster with 2 samples.

Results

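The 9 genes described here belong to the epidermal growth factor receptor (EGFR) and MAP kinase pathway of Drosophila melanogaster: Egfr, spi, rho, aos, pnt, aop, sty, kek1 and Ras85D. They were chosen by name, out of 13945 protein-coding genes on the chromosome arms, and not by a cut on any measured value. Earlier results of these data were known when they were named. For each gene, all summits of the authors' list of reproducible mod(mdg4) peaks that fell inside the gene span or within 5 kb of it were taken. This gave 45 of the 6273 summits on the arms.

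The peaks come from chromatin immunoprecipitation and sequencing (ChIP-seq) with an anti-GFP antibody on whole wandering third-instar larvae, males and females pooled. All larvae were of the transgenic strain mod(mdg4)-GFP, which carries a stable insertion expressing mod(mdg4) with GFP at its C terminus. There is 1 group, with the biological replicates numbered 3 and 4, and no treated or mutant group, so the comparisons are between these genes and the rest of the genome. The labels list larval age as unknown and name neither the isoform that carries the tag nor the promoter that drives it.

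In the EGFR pathway a secreted ligand binds the receptor, the receptor activates Ras, and a kinase cascade carries the signal to the MAP kinase, which alters ETS-family transcription factors in the nucleus. Several targets of the pathway are its own inhibitors, and in larvae it patterns the eye and wing discs, among other tissues. The protein mod(mdg4) is a BTB-domain chromatin protein with many isoforms, best known as a partner of the insulator protein su(Hw).

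The sequences below are shown for 2 leading summits that share a run of letters and 2 that hold other motifs. Each is the genome sequence of 101 bases centred on the strongest summit of its gene, read 5′ to 3′ on the + strand of dm6 from NCBI RefSeq. At pnt (chr3R:23331428-23331528) and aos (chr3L:16470212-16470312) the capitals mark a run that both windows share. At Ras85D (chr3R:9510374-9510474) the capitals mark matches to CGATA, the BEAF-32 element, on either strand. At spi (chr2L:19571895-19571995) they mark matches to GAGAGAG, the GAGA motif.
pnt: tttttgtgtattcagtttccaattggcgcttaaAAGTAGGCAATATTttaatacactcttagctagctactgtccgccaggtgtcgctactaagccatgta
aos: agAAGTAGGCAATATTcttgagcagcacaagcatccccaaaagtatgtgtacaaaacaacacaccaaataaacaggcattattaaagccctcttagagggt
Ras85D: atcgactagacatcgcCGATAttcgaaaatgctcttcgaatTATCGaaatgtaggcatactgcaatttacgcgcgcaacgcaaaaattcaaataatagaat
spi: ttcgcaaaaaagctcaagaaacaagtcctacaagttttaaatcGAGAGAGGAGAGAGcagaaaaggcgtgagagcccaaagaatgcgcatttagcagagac

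Summits of mod(mdg4) lay at 8 of the 9 genes, and rho was the exception. Of all protein-coding genes, 47.2% had a summit in a window made the same way. That share is not matched by gene span, and all members but Ras85D span over 5 kb. By class of span it ran from 41.4% under 5 kb to 74.6% at 50 kb or more. Egfr held 13 summits, aop and sty 8 each, pnt 7, spi 4, aos 3, and kek1 and Ras85D 1 each. The windows were also counted among the strongest 6294 peaks of each replicate's own list. At 3 genes a replicate count differed from the thresholded count by more than 1.5 times. These were pnt (11 in replicate 3 and 8 in replicate 4), kek1 (2 and 0) and Ras85D (1 and 2). The strength of a peak is given here as its signal, the enrichment over the control library that the authors' peak caller assigned, and as its rank by signal in the list, where rank 1 is the strongest. The member summits ran between 117.6 and 1175.2 in signal, with a median of 175.6, against 113.2 to 2429.3 with a median of 185.6 for all arm summits. The genes thus held many summits of ordinary strength and a few strong ones. Of the 45 summits, 5 (11.1%) lay above the 90th percentile of all arm summits by signal. Since whole larvae were used, weak binding in many cells and strong binding in few cells cannot be told apart in any of these values.

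**Figure D1:**
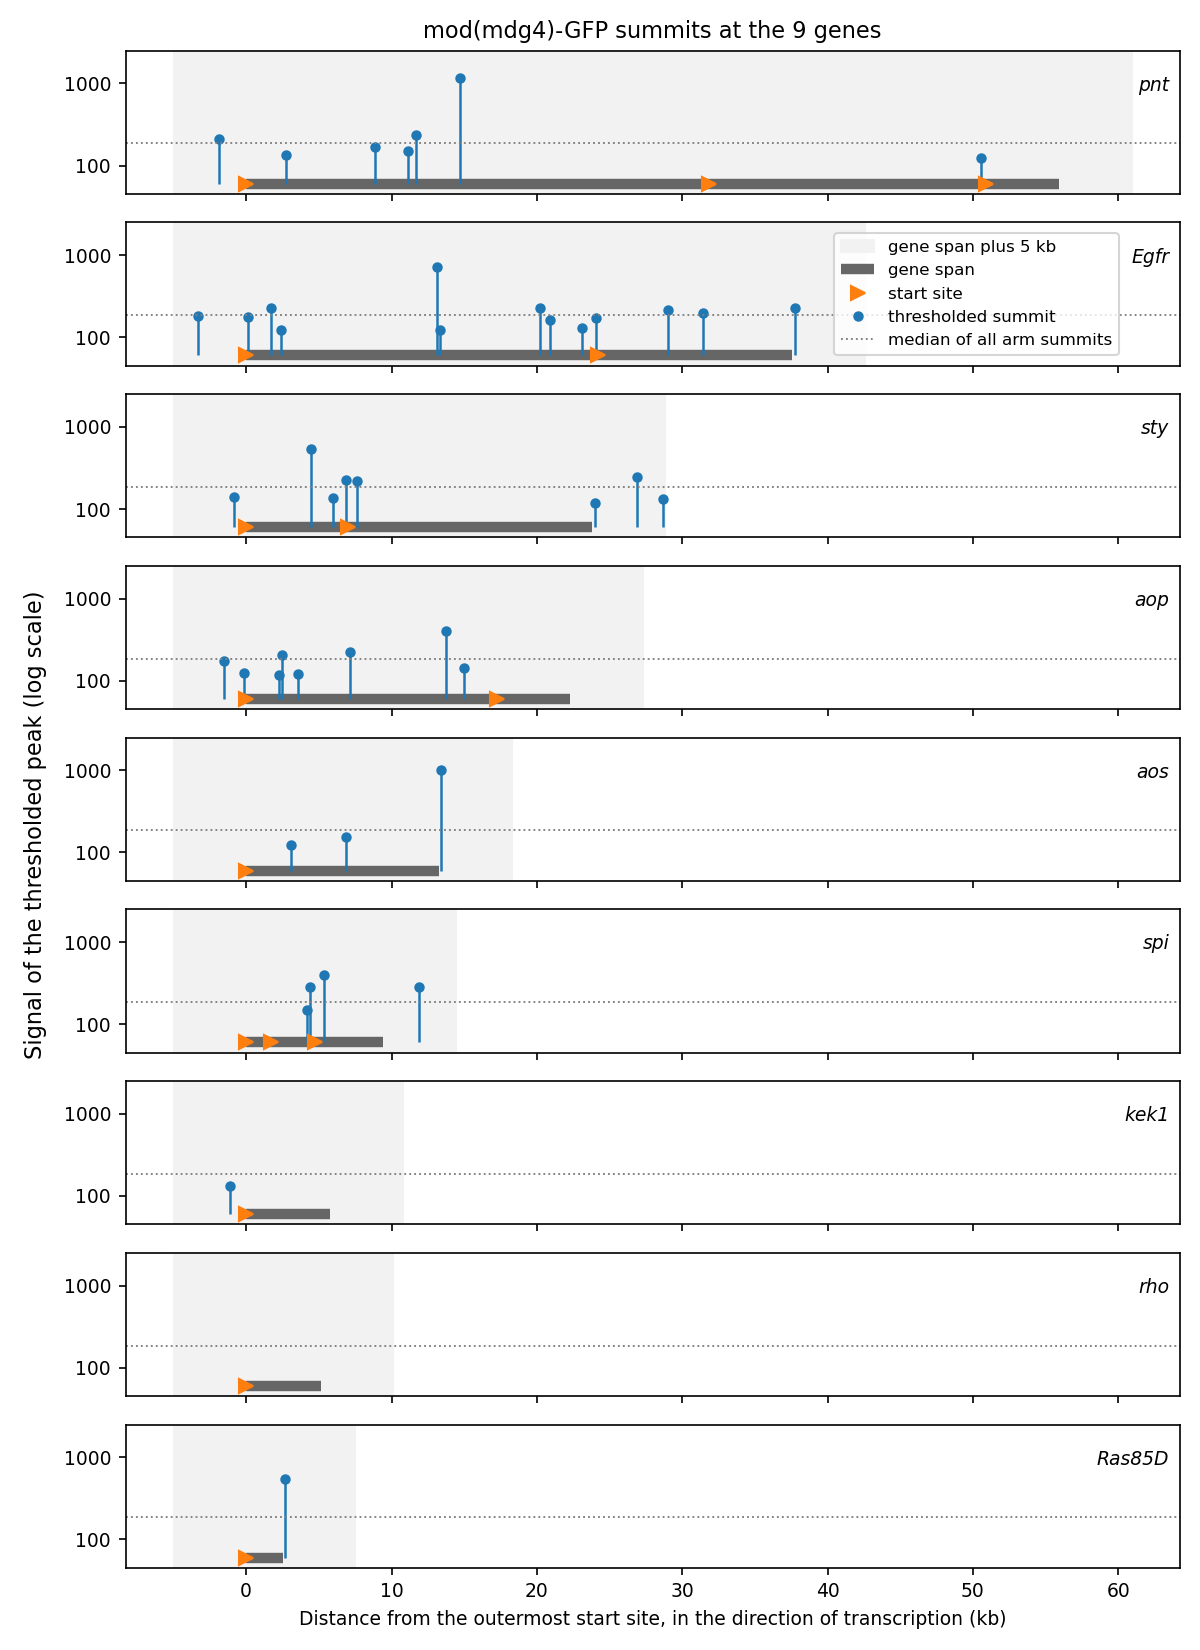
Each panel shows 1 gene, drawn in the direction of transcription with 0 kb at its outermost start site; the dark bar is the gene span, triangles are annotated start sites, pale shading is the span plus 5 kb, and each blue stem is a summit of the thresholded list with its signal on a log axis. The dotted line is the median signal of all arm summits, 185.6; pnt, aos and Egfr each have 1 summit far above it, and rho has none.

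The density of summits was 1.69 per 10 kb over the 265.7 kb of the member windows, against 0.538 per 10 kb over the windows of all protein-coding genes and 0.469 over the arms. Window length differs between genes, and longer spans held a summit more often: 41.4% of genes with spans under 5 kb did, and 74.6% of those of 50 kb or more. Egfr stood high within its own length class. Only 23 protein-coding genes (0.165%) had 13 or more summits, and 5 of the 706 genes with spans of 20 to 50 kb did, Egfr included. For aop and sty, 143 genes (1.03%) had 8 or more summits, among them 52 of the 706 (7.37%) in the same class. For pnt, 70 of 307 genes (22.8%) with spans of 50 kb or more had 7 or more summits. On the single lists, 9.77% of that class had the 11 of replicate 3 or more and 14.7% the 8 of replicate 4 or more, so the standing of pnt depends on the list. For spi the share of its class, spans of 5 to 10 kb, with 4 or more was 10.5%, and for aos the share of its class, spans of 10 to 20 kb, with 3 or more was 31.2%. For kek1, 57.1% of the 5 to 10 kb class had 1 or more, and for Ras85D 41.4% of genes under 5 kb. Other genes also moved between the lists of replicates 3 and 4. The share with as many or more was 10.4% and 5.31% for spi, and 30.3% and 48.8% for aos. It was 4.25% and 9.35% for sty, 43.6% and 23.5% for Ras85D, and 36.9% and 100% for kek1. For Egfr (0.992% and 0.708%) and aop (9.35% in both) it changed less.

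**Figure D2:**
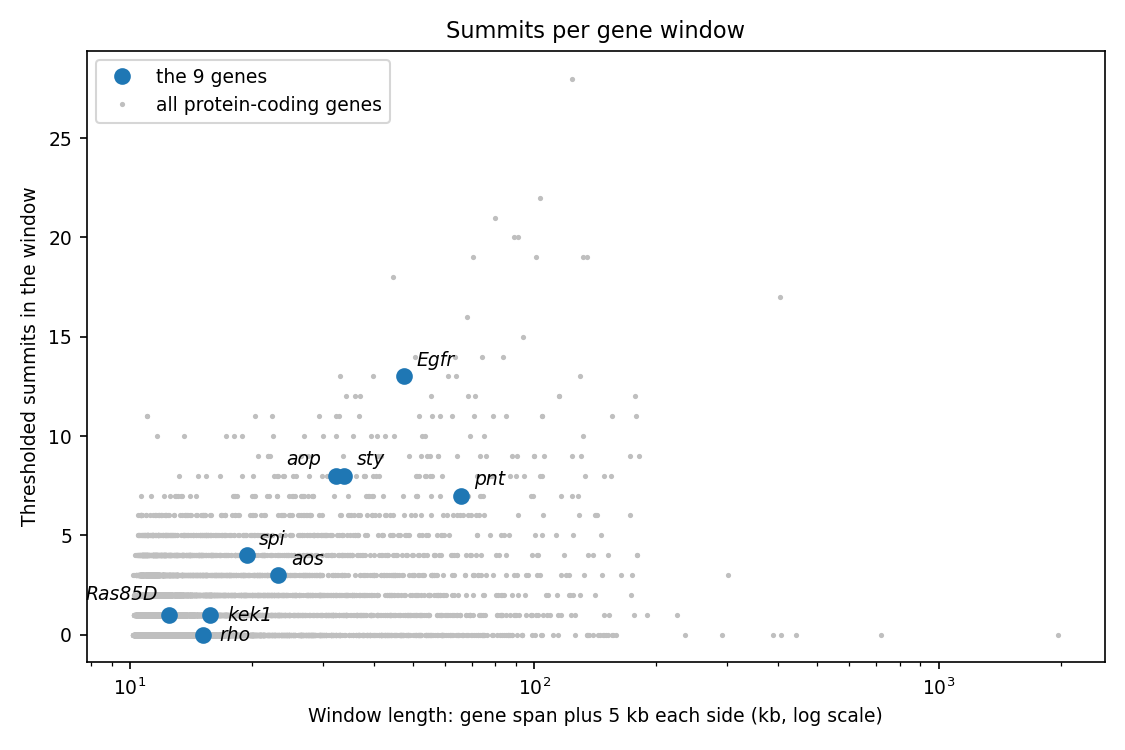
Thresholded summits per gene (vertical axis) are plotted against the length of the gene span plus 5 kb on each side in kb (horizontal axis, log scale), for the 9 genes in blue and for all protein-coding genes on the arms in grey. Egfr, with 13 summits, lies near the upper edge of the cloud at its window length, while aos, kek1, Ras85D and rho lie well inside it.

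The 2 replicates were compared through their own lists, in which a thresholded peak was matched to the replicate peak that overlapped it by at least 1 bp. Because the signal scales of the lists differ, each replicate signal was also divided by the median arm peak of its list, 38.0 in replicate 3 and 27.8 in replicate 4. These lists hold 29999 entries each and include background as well as peaks, so a match alone does not make a called peak. All 45 member summits had a match in both lists. A summit is called strong in a replicate where its peak overlapped 1 of the strongest 6294 peaks of that list, as many as the thresholded list holds. By this rule 32 of the 45 (71.1%) were strong in both replicates, against 70.8% of all arm summits, and the other 13 were strong in 1. The share at the pathway genes was therefore near that of the genome. With summits matched within 200 bp instead of by overlap, 30 of the 45 were strong in both. The log2 ratio of the scaled signals, replicate 4 over replicate 3, had an SD of 0.64 over the 45 summits and 0.69 over all matched arm summits. It stayed within 2-fold for 40 of 45 member summits (88.9%), against 86.5% of all. The replicate signals had a Spearman rho of 0.556 across the 45 summits and of 0.591 across the 6197 matched arm summits; peaks share their libraries and control, so both are given as descriptions.

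**Figure D3:**
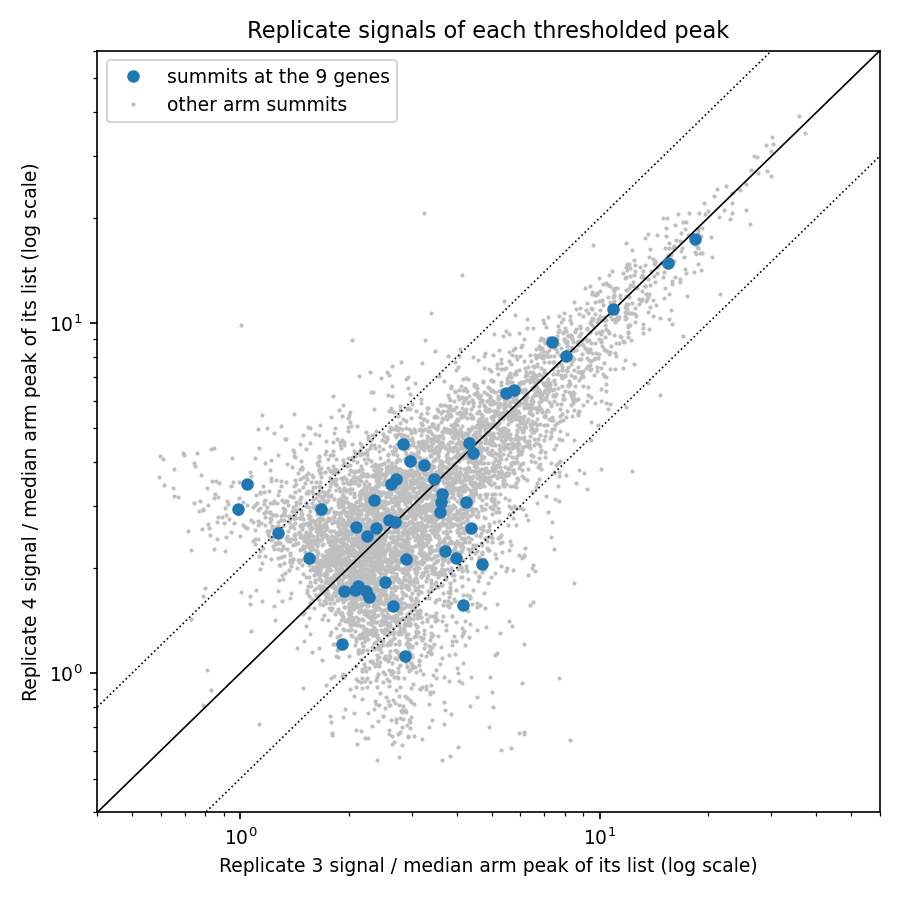
Each point is a thresholded peak, with its signal in replicate 3 (horizontal) and replicate 4 (vertical) divided by the median arm peak of that replicate's list, both on log axes; blue points are the 45 summits at the 9 genes and grey points the other arm summits. The solid line marks equal values and the dotted lines 2-fold; the strongest blue points lie on the line, and 5 weaker ones lie beyond 2-fold.

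Egfr, the receptor tyrosine kinase itself (FBgn0003731), spans 21522420 to 21559977 on the + strand of 2R, 37.6 kb with 2 start sites. Its strongest summit, at 21535519, had a signal of 714.3 and rank 222, with 412.4 (rank 235) in replicate 3 and 305.0 (rank 204) in replicate 4. It lay in an Egfr intron 13099 bp downstream of the outer start site, and the nearest start, 1276 bp away, belonged to CG30286, a gene nested in Egfr. After scaling, the replicates differed there by 0.02 on the log2 scale. The other 12 Egfr summits ran between 121.6 and 230.4, so 1 site stood far above the rest. Each of the start sites had its own summit: 175.6 at 115 bp downstream of Egfr-RA, and 170.8 at 176 bp upstream of Egfr-RB. The Egfr-RA summit had 150.8 (rank 1958) in replicate 3 and 59.1 (rank 5512) in replicate 4, a lower standing in replicate 4. Of the 13, 2 were not strong in replicate 4: 1 of 121.6 in an Egfr intron, 2387 bp downstream of Egfr-RA, and 1 of 131.5. The summit farthest upstream lay 1 bp from the start of CG10494, an upstream neighbour. Another summit of 121.6, strong in both replicates, lay in the 3′ UTR of CG30286, 1067 bp from that gene's start. The nearest start belonged to CG30283 for a further 2 summits and to twz for the last one, 173 bp past the 3′ end of Egfr.

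The ligand gene spi (FBgn0005672) encodes Spitz, a TGFα-like precursor that must be cleaved before it can act on the receptor. It spans 19567900 to 19577315 on the − strand of 2L, 9.42 kb with 3 start sites. Its strongest summit, at 19571945, had a signal of 393.4 (rank 784), with 208.6 (rank 1066) in replicate 3 and 174.9 (rank 731) in replicate 4. That site is the one printed above with GAGA letters, in an intron 665 bp downstream of the start shared by spi-RB and spi-RE. The 4 summits of spi were not spread over its starts. Upstream of that same start lay 1 summit at 301 bp (287.0, with 163.8 in replicate 3 and 126.3 in replicate 4) and 1 at 500 bp (150.4). No summit lay within 500 bp of the spi-RG start or of the outermost start of spi-RA and spi-RF. The summit at 500 bp was among those on which the replicates disagreed: the closest peak had 37.5 (rank 15265) in replicate 3 and 81.7 (rank 3337) in replicate 4, a log2 ratio of 1.58. It counts as strong in replicate 3 because its interval also overlapped the peak of the summit beside it. The fourth summit (284.8) lay past the 3′ end, 440 bp upstream of CG13077.

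The gene rho (FBgn0004635) encodes Rhomboid, the intramembrane protease that cleaves Spitz. It spans 1463811 to 1468944 on the + strand of 3L, 5.13 kb with 1 start site, and had no summit in the thresholded list. The longer pooled list of peaks and background, made from the reads of both replicates together, held 4 entries in its window. The strongest had 82.4, against 113.2 for the weakest peak of the thresholded list, and lay in an intron 777 bp downstream of the start. Its replicate values were 53.6 (rank 9533) and 31.4 (rank 12831), so neither replicate placed it among its strongest 6294. An entry at 15 bp from the start had 52.6. At these ranks an entry may be background, so they do not show a peak at rho.

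Among the inhibitors, aos (FBgn0004569) encodes Argos, a secreted protein that binds and sequesters Spitz, and is itself turned on by the pathway. It spans 16470386 to 16483650 on the − strand of 3L, 13.3 kb with 1 start site. Its strongest summit, at 16470262, had a signal of 998.7 and rank 83, with 587.8 (rank 86) in replicate 3 and 412.5 (rank 89) in replicate 4. This site lay 124 bp past the 3′ end of aos, inside an intron of CG33158, and 13388 bp from the aos start. The replicates placed it almost alike, with a log2 ratio of −0.06. The other aos summits, both in introns, had 152.4 and 123.9, and each was strong in 1 replicate only: the 152.4 summit in replicate 3, the 123.9 summit in replicate 4. No thresholded summit lay within 500 bp of the aos start; the pooled list held an entry of 64.1 at 62 bp.

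The gene kek1 (FBgn0015399) encodes Kekkon1, a transmembrane protein that binds and inhibits the receptor. It spans 12817000 to 12822787 on the − strand of 2L, 5.79 kb with 1 start site. Its single summit, 1090 bp upstream of the start, had 132.2 (rank 5157), the weakest leading summit of the 8 genes with one. Replicate 3 gave 100.8 (rank 3865) and replicate 4 gave 43.2 (rank 8506), so the summit was strong in replicate 3 only. The pooled list held entries of 112.6 at 339 bp and 109.8 at 122 bp upstream, close in signal to the weakest thresholded peak (113.2). Both matched the same replicate 3 entry of 82.9 (rank 5184), but in replicate 4 they had 24.8 (rank 17241) and 41.5 (rank 9009), outside its strongest 6294.

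Inside the responding cell sty (FBgn0014388), which encodes Sprouty, restrains signalling by receptor tyrosine kinases. It spans 3401153 to 3424935 on the − strand of 3L, 23.8 kb with 2 start sites. Of its 8 summits the strongest, at 3420460, had a signal of 533.6 (rank 412), with 280.3 (rank 565) in replicate 3 and 245.0 (rank 358) in replicate 4. It lay in an intron, 2499 bp upstream of the inner start of sty-RB. The summits clustered around that inner start. One lay 104 bp upstream of it (222.4, with 166.8 in replicate 3 and 72.2 in replicate 4), and others lay 646 bp downstream (218.0) and 993 bp upstream (135.2). At the outer start of sty-RC the closest summit was 827 bp upstream (141.2) and was strong in replicate 4 only. Past the 3′ end lay summits of 119.2 at 233 bp, 244.1 at 3101 bp and 130.8 at 4929 bp, the last pair nearest to the start of Ids. The 119.2 summit was strong in replicate 4 only, and the 130.8 summit in replicate 3 only.

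Ras85D (FBgn0003205) encodes the Ras GTPase that links the receptor to the kinase cascade. It is the shortest of the 9 genes, spanning 9510561 to 9513067 on the − strand of 3R, 2.51 kb with 1 start site. Its only summit, at 9510424, had a signal of 539.0 (rank 403), with 305.4 (rank 470) in replicate 3 and 223.8 (rank 428) in replicate 4, equal after scaling (log2 ratio 0.00). The summit lay 137 bp past the 3′ end of Ras85D and 100 bp upstream of the start of rump, the next gene. By distance it is a promoter summit of rump, and no thresholded summit lay within 500 bp of the Ras85D start.

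At the end of the cascade pnt (FBgn0003118) encodes Pointed, the ETS-family activator that the MAP kinase switches on. It spans 23290231 to 23346167 on the − strand of 3R, 55.9 kb with 3 start sites. Its strongest summit, at 23331478, had a signal of 1175.2 and rank 42, with 697.9 (rank 47) in replicate 3 and 484.4 (rank 53) in replicate 4. It was the strongest summit of all 45, and lay in an intron 14689 bp downstream of the outermost start, that of pnt-RB. The replicates differed there by −0.07 on the log2 scale, far less than the SD of 0.64 over the 45 summits. The other 6 pnt summits had 125.0 to 237.3. One of them (237.3) stood lower in replicate 4, with 178.5 (rank 1419) in replicate 3 and 56.9 (rank 5803) in replicate 4. Of the 3 start sites, that of pnt-RC and pnt-RE alone had a summit within 500 bp, at 401 bp upstream (125.0), and it was not strong in replicate 4. The upstream summit of 211.2 lay 107 bp from the start of PolE1, on the far side of the intergenic stretch.

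The counterpart of Pointed is aop (FBgn0000097), which encodes Yan, the ETS-family repressor that MAP kinase activity removes. It spans 2156484 to 2178754 on the − strand of 2L, 22.3 kb with 2 start sites. The strongest of its 8 summits, at 2164976, had a signal of 408.6 (rank 718), with 219.5 (rank 955) in replicate 3 and 178.7 (rank 692) in replicate 4, and lay in an intron 3449 bp upstream of the inner start of aop-RA. The summit at the outer start, 131 bp upstream of aop-RB, was among the weakest (123.6) and was not strong in replicate 4. Replicate disagreement was most frequent at this gene. Of the 5 member summits beyond 2-fold, 3 were at aop, with log2 ratios of 1.73 (signal 141.5), −1.36 (121.9) and −1.41 (204.9), and the other two were the spi and pnt summits already given. The strongest aop summit was not among them. The 204.9 summit counts as strong in replicate 4 by overlap, although the closest peak there had 43.5 (rank 8401). For all 8 aop summits the nearest protein-coding start was that of aop.

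**Figure D4:**
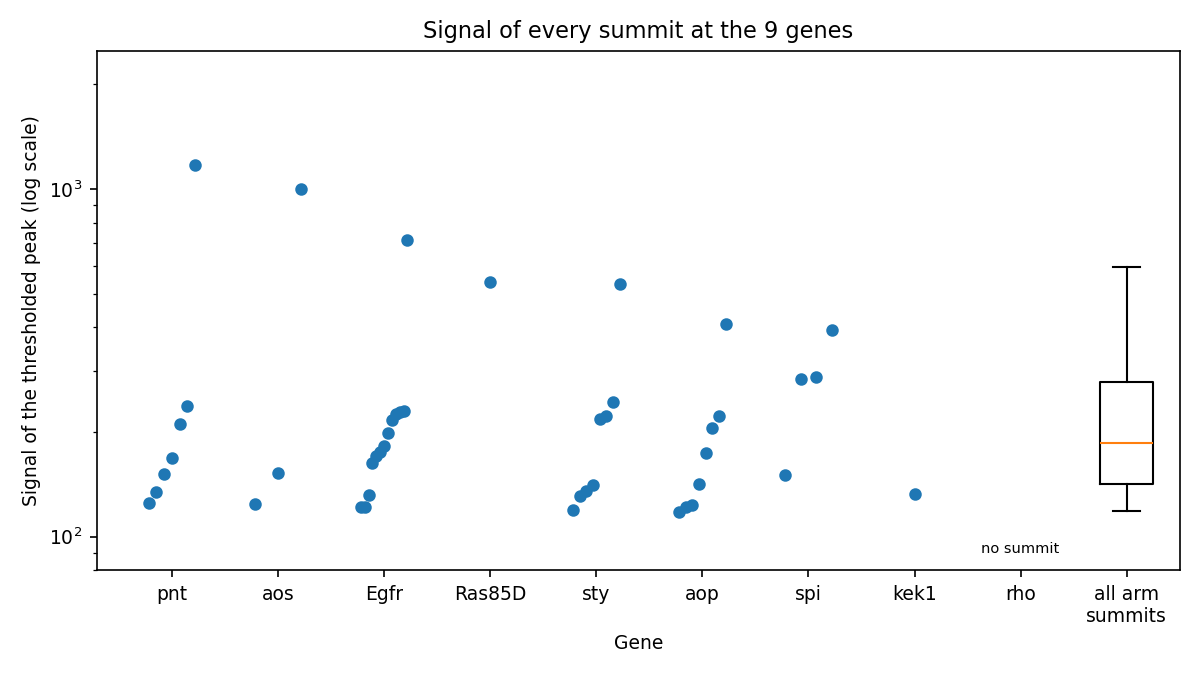
Signals of the thresholded summits (vertical axis, log scale) are plotted for each of the 9 genes, ordered by the strongest summit, with each point a summit; points of 1 gene are spread sideways only to keep them apart. The box at the right gives all 6273 arm summits, with the median at 185.6, the box spanning the middle 50% and whiskers at the 5th and 95th percentiles; pnt, aos and Egfr each have a single summit above the upper whisker.

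By position, 32 of the 45 summits lay inside the gene span, 6 upstream and 7 downstream. Introns held 30 of them (66.7%), against 48.0% of all arm summits, and intergenic DNA held 11 (24.4%), against 38.0%. A further 3 were in 5′ UTRs, 1 in a 3′ UTR and 0 in coding or noncoding exons. Start sites were less represented: 11 of the 45 (24.4%) lay within 500 bp of the start of any protein-coding gene, against 42.0% of all arm summits, and the median distance to such a start was 2210 bp, against 801 bp. The windows take in all introns of their genes, and the shares were not tested. Of the 45, 34 had a start of their own gene as the nearest protein-coding start, among them all summits of aos, aop and kek1.

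A promoter summit, within 500 bp of any annotated start of the gene, was present at 5 of the 9 genes (Egfr, spi, pnt, aop and sty), against 18.7% of all protein-coding genes. Counting outermost start sites alone it was 2 of 9 (22.2%), against 16.5% of all, and within 250 bp of any start 3 of 9 (33.3%), against 14.9%. With the strongest peaks of replicate 3 alone it was 6 of 9 (66.7%), against 19.6% of all. With those of replicate 4 alone it was 5 of 9 (55.6%), against 21.4%. The 5 genes with one in the thresholded list all have more than 1 start site. None of the 4 genes with 1 start site (rho, aos, kek1, Ras85D) had one in that list. Among all protein-coding genes 34.7% of 3699 with several start sites had a promoter summit, and 13.0% of 10246 with 1 start site. None of the promoter summits was the strongest summit of its gene. Their signals ran between 123.6 and 287.0, while the leading summits of the same 5 genes ran between 393.4 and 1175.2.

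After the values of aos and Ras85D had been seen, summits just past a 3′ end were counted. A summit lay within 500 bp past the outermost 3′ end of 4 of the 9 genes, Egfr, aos, sty and Ras85D, against 6.27% of all protein-coding genes. Without summits that also lie within 500 bp of a protein-coding start, as the Ras85D summit does, the count was 3 of 9, against 2.87% of all. The signals of the 4 were uneven, with 998.7 at aos, 539.0 at Ras85D, 230.4 at Egfr and 119.2 at sty. The sty summit was strong in replicate 4 only (rank 5505, against 8371 in replicate 3). As this rule was made on these genes, the counts are descriptions only.

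Motifs were counted by letters on both strands within 100 bp of each summit. The su(Hw) core TGCATA was found at 10 of 45 member summits (22.2%), against 16.6% of all arm summits, and the pnt summit of 1175.2 and 3 of the 4 spi summits were among them. The longer su(Hw) site, added after the data were seen, was found at 1 (spi, 284.8), 2.22%, against 3.06% of all. The CTCF core AGNNGGCGC was found at 5 (11.1%), against 3.79%, including the strongest Egfr summit and 3 aop summits. The GAGA motif GAGAGAG was found at 5 (11.1%), against 7.38%. The BEAF-32 element CGATA, which is contained in the longer DRE motif TATCGATA, was found at 11 (24.4%), against 28.7%. The Pho core GCCAT was found at 9 (20.0%), against 26.6%. Neither the DRE nor Motif 1 (GGTCACACT) was found at any member summit, against 3.11% and 1.72% of all. The core CCGGAA of sites read by ETS factors such as Pointed and Yan was found at 1 (sty, 119.2), against 3.40%. A total of 15 (33.3%) held none of these 8 motifs, against 37.0% of all. A match of letters is not a bound site, and none of these shares was tested.

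The run shared by the strongest pnt and aos summits is AAGTAGGCAATATT, 14 bases long, starting 17 bp before the pnt summit and 48 bp before the aos summit. It was picked as the longest run shared in 21 pairs of leading summits, so that both hold it follows from how it was chosen. Among the 6273 arm summits, only these 2 held it within 100 bp, while the run occurs 8 times on the arms. Whether a shared run of this length is unusual was not tested. Among the strongest summits of pnt, aos, Ras85D, sty, aop, spi and kek1, any other pair shared at most 9 bases within 50 bp. The strongest Egfr summit was not part of this comparison. The run shared by pnt and aos begins with the pattern AAGTANGC, whose reverse complement forms part of the su(Hw) consensus. At the open letter N the run has G, where the reverse complement of the su(Hw) core TGCATA has T. The run therefore does not hold that core. The aos summit was not among the 10 with the core, and neither summit held the longer su(Hw) site. This pattern was chosen after the sequences had been seen. It was found at 2 of the 45 member summits, these same ones, against 8.85% of all arm summits; among all arm summits it was at 25.2% of those above the 90th percentile by signal and 7.03% of the rest. The GC content of the windows had a median of 36.8% at the member summits and 36.3% at all.

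The other genes of the pathway were read from a list of 30 genes. A summit lay in the window of 22 of them (73.3%), and a promoter summit at 11 (36.7%), against the 47.2% and 18.7% of all protein-coding genes given above. These backgrounds are not matched by gene span, and most of the 30 genes have spans between 5 and 50 kb. Of all genes with spans under 5 kb, 41.4% had a summit and 14.1% a promoter summit. At 5 to 10 kb the shares were 57.1% and 26.1%, and at 10 to 20 kb 67.7% and 37.3%. At 20 to 50 kb they were 73.1% and 38.4%, and at 50 kb or more 74.6% and 38.1%. The shares of the 30 genes lie within the range of these classes. Promoter summits were found at 2 of 7 genes for ligands and their processing, at 3 of 10 for adaptors and Ras regulators, at 3 of 8 for the kinase cascade and its scaffolds, at 1 of 2 phosphatases, at both nuclear regulators and not at ed, an adhesion gene that antagonises the receptor. The total was 11 with the strongest peaks of replicate 3 and 12 with those of replicate 4, but the classes moved: adaptors and Ras regulators had 2 in replicate 3 and 6 in replicate 4, and ligands and processing 3 and 1.

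Among those 30 genes the strongest promoter summit was that of Shc, a phosphotyrosine adaptor, with 677.5 (rank 250), although the start of Atat was closer to it. Those of ave (375.9), a scaffold gene, of 14-3-3zeta (317.3), a phosphoprotein-binding partner of Raf, and of the ligand gene Krn (229.9) were also nearer to a neighbour's start. The docking protein gene dos had 261.8. The nuclear regulators had 255.0 at edl, whose product antagonises ETS factors, and 244.7 at cic, the Capicua repressor, which like Egfr held 13 summits in its window. Mkp3, a MAP kinase phosphatase, had 231.2 at a promoter and a strongest summit in the window of 839.2. The entry closest to that promoter summit ranked 837 in replicate 3 and 24142 in replicate 4, although another Mkp3 promoter peak was among the strongest of replicate 4. Raf, the kinase below Ras, had 178.4 at a promoter, with 11 summits in the window and a strongest of 598.6. RasGAP1, which turns Ras off, had 122.4, and the ligand gene vn had 117.9, both close to the weakest thresholded signal of 113.2. Replicates differed there and at Raf: the ranks in replicates 3 and 4 were 11281 and 3057 at RasGAP1, 5278 and 10928 at vn, and 2443 and 8063 at Raf. The promoter summits of the other 7 genes ranked among the strongest 6294 in both replicates. Of the genes without a promoter summit, Cbl, cnk and csw had no thresholded summit in the window, while 14-3-3epsilon had 3. A promoter peak of csw was among the strongest 6294 of replicate 4, but not of replicate 3.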

How the data were processed

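The authors deposited peak lists on dm6 for each replicate, for the pooled reads (both of peaks with background) and for peaks that passed the optimal IDR (irreproducible discovery rate) threshold, all without headers and called against a control library, which was not used here. Neither labels nor headers name the peak caller, the aligner or the IDR threshold. The signal of each peak, as deposited by the authors, is the caller's enrichment, and its scale differs between lists. The −log10 q values, as deposited by the authors, reach a ceiling at 20 of the 45 member summits and at 2743 of all 6273 arm summits, and were not used to rank. The thresholded list holds 6294 peaks and each of the other lists 29999. Per the labels, chromatin was sonicated to 200 to 800 bp, and the antibody field names mod(mdg4) while the description names anti-GFP. The same reads on dm3 were not used here. The files give no read counts, so depth is unknown and no interval is given. No column was left unmapped (0).

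Summits were placed, counted from 1, on genes of Ensembl release 115 and read against the RefSeq dm6 sequence. The code was checked on made-up peaks with known positions. Python 3.11.15, NumPy 2.4.6, pandas 2.3.3, SciPy 1.17.1 and matplotlib 3.10.9 were used. All 9 members were named, and every gene other than the member that held the nearest start to a summit. Of the other pathway genes, those named were the genes with a promoter summit, up to 12, and the first 4 in the alphabet without one; the values of cic, Mkp3 and Raf elsewhere in their windows and the lack of a promoter summit at ed were added after being seen. The members and lists were chosen with earlier results of these data known, so no test was run and all comparisons are descriptions. The replicates are called biological in the labels. Alternatives were the window extension, promoter distance, list, matching rule and each replicate alone.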

Additional observations from a re-analysis of the deposited data

How the results depend on the processing

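Of 50 alternative values, 40 stayed near the value given and 10 moved. The label near still covers visible changes. With the gene span alone, 32 summits were left, 24 of them strong in both replicates. They lay at 6 of the 9 genes (66.7%), against 13.1% of all protein-coding genes. Keeping only thresholded peaks stronger than the median left 21 summits at the 9 genes, 15 in introns, 0.790 per 10 kb, a median percentile by signal of 34.1 among the arm peaks kept (45.9 in the whole list, where 100 is the strongest), and 2 genes with a promoter summit. A promoter distance of 250 bp left 3 genes with one, and the outermost start sites alone left 2. Under the window, list, distance and single-replicate alternatives the share of all protein-coding genes was recomputed, and the share of the 9 genes stayed above it for summits and promoter summits, with the smallest gap for outermost starts (22.2% against 16.5%). The density also stayed above that of the arms, 0.790 against 0.234 per 10 kb for the peaks above the median. With an extension of 2 kb the density was 1.94 per 10 kb. With each replicate list alone, the density was 1.66 (without replicate 3) to 1.88 (without replicate 4), and the median percentile 45.8 (without replicate 3) to 42.5 (without replicate 4). The count of promoter summits thus depends on weak summits, on inner start sites and on the distance allowed. Merging summits within 500 bp left 42, and requiring the nearest start to be a member's left 34; both were added after seeing the data. No paired analysis was possible because there is 1 group. With 2 replicates and no read counts, the error of a single peak is known only through its replicate ratio.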
